A study of Mus musculus with 10 samples.

Results

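The genes described here are the PGC-1 coactivators Ppargc1a and Ppargc1b and 8 factors that work with them or beside them, namely the estrogen-related receptors Esrra, Esrrb and Esrrg, the receptors Ppara and Nr2f6, and the mitochondrial biogenesis factors Nrf1, Gabpa and Tfam. They were chosen by name, with earlier results of these data known, and all 10 were among the 13837 genes with deposited values. All 10 also reached 10 normalized counts in 5 or more mice, as 13197 genes did, and were tested. Expression was measured in whole kidneys of 3-month-old C57BL/6 mice, 5 Rragc+/+ and 5 RragcS74N/+, with 1 QuantSeq 3′ library per mouse. RragcS74N/+ mice carry, throughout the body, 1 copy of an allele made by Cas9 editing of embryos, which encodes a RagC variant that mimics the GDP-bound form in which this GTPase activates mTORC1, and the wild-type allele remains on the other chromosome. Mice were otherwise untreated. The number of founders, the sex and the feeding state of the mice were not given in the sources used here, and mice are numbered 1 to 5 within a genotype by the order of their records. The Y-linked genes Ddx3y, Uty, Kdm5d and Eif2s3y summed to 658 to 762 normalized counts in Rragc+/+ and 725 to 838 in RragcS74N/+ mice. Xist was not among the deposited genes, so the values are those of males in both groups. A pair of groups that differ by design in 1 allele was thus compared, and p values set the difference between genotypes against the spread between mice.

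PGC-1α, the product of Ppargc1a, has no DNA-binding domain of its own. It is recruited by transcription factors such as the estrogen-related receptors, PPARα and NRF-1, and brings in the machinery that opens chromatin and starts transcription of genes for oxidative phosphorylation, fatty acid oxidation and, in the kidney tubule, NAD synthesis. PGC-1β is its closest relative, with overlapping targets and a different response to stimuli. The estrogen-related receptors bind DNA without a known natural steroid ligand, NRF-1 and GABP drive nuclear genes of the respiratory chain, and TFAM packages and transcribes the mitochondrial genome. In the kidney, PGC-1α is prominent in the proximal tubule and the thick ascending limb, where ion transport depends on mitochondrial ATP. Tfeb, whose product is held in the cytoplasm when mTORC1 is active, is a known activator of Ppargc1a transcription.

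For the 2 members that changed, Ppargc1a and Esrrb, the 250 bases before a start are shown, to be read beside their values. Esrrb has 2 starts, and the stretch before the first is shown. RefSeq entries on GRCm38.p6 were found for 9 of the 10 genes, 14 entries in all, and the 250 bases before each transcription start were read. These coordinates belong to GRCm38 and not to GRCm39, to which the reads were aligned. Capitals in the sequences that follow mark TGACG or its reverse complement, the half-site of the cAMP response element through which CREB and related factors bind. The first sequence is chr5:51567726-51567975 (minus strand), upstream of Ppargc1a, and the second is chr12:86360867-86361116 (plus strand), upstream of the first Esrrb start.
Ppargc1a: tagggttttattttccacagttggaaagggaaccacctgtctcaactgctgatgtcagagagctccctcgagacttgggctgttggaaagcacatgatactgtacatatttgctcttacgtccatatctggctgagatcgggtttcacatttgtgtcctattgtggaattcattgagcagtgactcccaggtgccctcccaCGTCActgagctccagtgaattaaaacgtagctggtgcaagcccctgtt
Esrrb: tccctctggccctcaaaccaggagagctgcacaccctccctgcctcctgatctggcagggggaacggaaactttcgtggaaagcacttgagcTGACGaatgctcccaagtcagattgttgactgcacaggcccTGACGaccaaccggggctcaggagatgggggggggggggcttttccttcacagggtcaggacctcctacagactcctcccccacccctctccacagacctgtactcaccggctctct
The Ppargc1a stretch held 48.0% G and C, 5 CpG and 1 half-site, 49 bases before the start. The Esrrb stretch held 60.8% G and C, 6 CpG and 2 half-sites, 158 and 117 bases before the start. Half-sites of this kind were present on either strand in 17.8% of 32851 promoters read in the same way. The other 6 motifs searched were not found in either stretch, nor was any motif found before the second Esrrb start.

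Motifs of the mitochondrial regulators stood before other members, with the site in capitals and 11 bases on each side.
Ppara: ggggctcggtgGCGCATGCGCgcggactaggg
Tfam: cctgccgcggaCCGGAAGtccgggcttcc
Gabpa: gagggtaagtgCTTCCGGgtccctcagct
The Ppara site matches the palindromic NRF-1 motif on both strands, 31 bases before the start, and 3.74% of promoters held that motif. Tfam carried the ETS core CCGGAAG bound by GABP, 47 bases before the start, and Gabpa itself carried it on the reverse strand, 93 bases before the start (6.91% of promoters). A half-site TGACG also stood 222 bases before the Ppara start. The remaining motifs, which are CACGTG (the E-box that also lies within TFEB sites, in 6.02% of promoters), TNAAGGTCA (the estrogen-related receptor element, 1.14%), AAGGTCA (contained in it, 4.08%) and TGACGTCA (the full cAMP response element, which contains TGACG, 1.55%), were found in none of the 14 stretches. A match of letters is a description of the sequence, and binding was not measured here.

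Depth was 6501552 to 7856363 reads assigned to genes in Rragc+/+ and 6872310 to 7996087 in RragcS74N/+ mice, and the size factors by which the authors divided counts ran from 0.8818 to 1.124. QuantSeq reads come from the 3′ end of each transcript, so a normalized count does not grow with transcript length. Library codes fall into 2 runs of numbers, 38 to 40 (Rragc+/+ replicates 1 and 2 and RragcS74N/+ replicate 1) and 53 to 66 (the other 7 mice). The labels do not say what the codes stand for. Rragc itself had 285 ± 42.3 normalized counts in Rragc+/+ and 216 ± 23.6 in RragcS74N/+ kidneys (SD, n = 5). The log2 fold change was -0.40 with a standard error of 0.12 and did not pass (limma, adjusted p = 0.0678), whereas DESeq2 on the recovered reads called it (adjusted p = 0.0312). Counts at the 3′ end do not separate the edited from the wild-type allele, so they do not check the genotype labels.

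Of the 10 members, 2 were differentially expressed, Ppargc1a and Esrrb, and both were lower in RragcS74N/+ kidneys. The other 8 did not pass the test, and their log2 fold changes lay between -0.29 (Esrrg) and 0.01 (Esrra). Over all genes tested, 3.69% were called in either direction and 2.02% lower (limma on log2 of the normalized count plus 1, Benjamini-Hochberg adjusted over 13197 genes, threshold 0.05). The same 2 genes were lower without overlap between the groups, as were 2.71% of all genes tested. They were also the members called by edgeR (3.64% of all genes called) and DESeq2 (4.91%) on the recovered reads and with a covariate for the library codes (6.30%), and Ppargc1a alone was called among the 7 mice with codes 53 to 66 (2.62%).

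**Figure D1:**
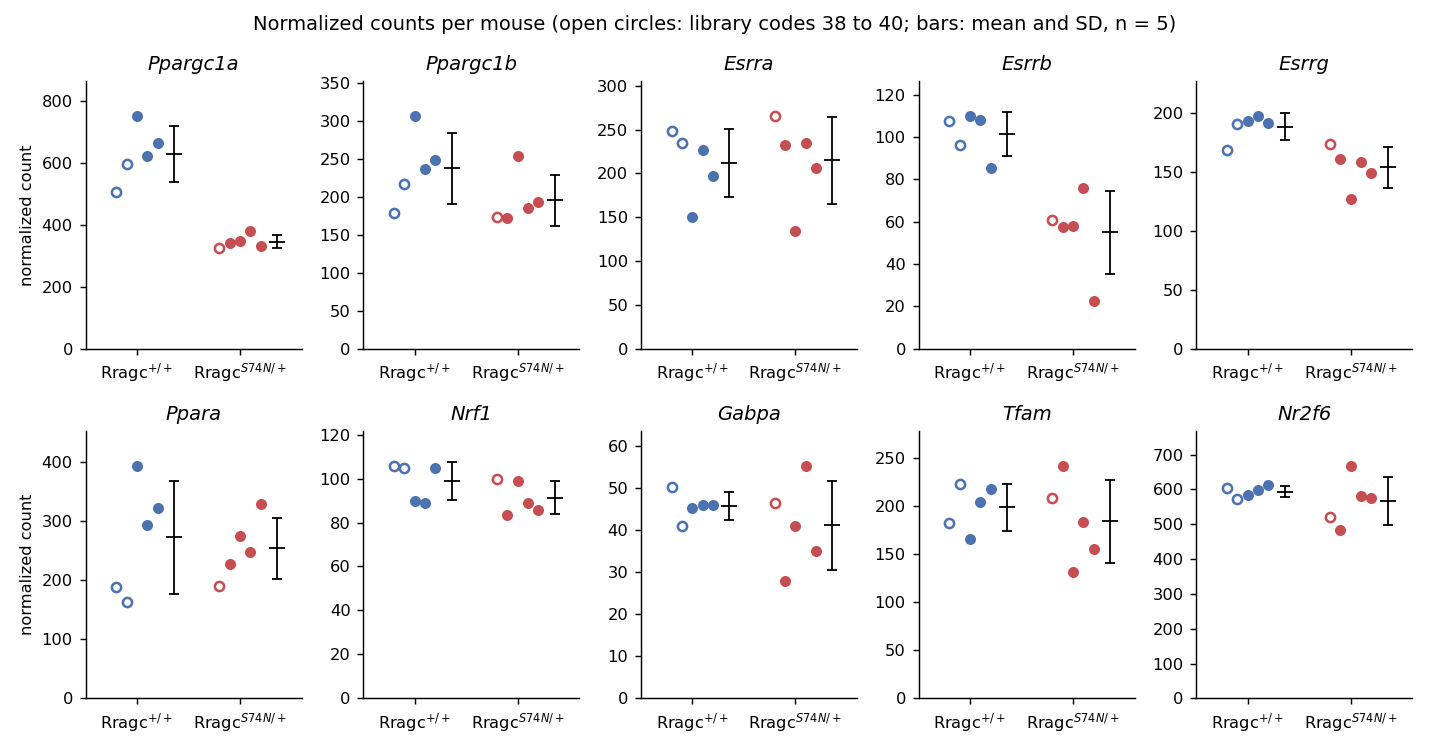
Normalized counts of the 10 genes in each mouse (vertical axes start at 0), with Rragc+/+ in blue, RragcS74N/+ in red, open circles for the library codes 38 to 40 and bars for the mean and SD (n = 5). The groups separate for Ppargc1a (lowest Rragc+/+ mouse 505.7, highest RragcS74N/+ mouse 379.5) and for Esrrb (85.4 and 76.1), and overlap for the other 8 genes.

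The coactivator gene Ppargc1a was expressed at 505.7, 598.5, 753.0, 622.8 and 665.2 normalized counts in Rragc+/+ mice 1 to 5. In RragcS74N/+ mice 1 to 5 it was at 327.2, 341.9, 349.9, 379.5 and 330.8 normalized counts. Every RragcS74N/+ kidney was below every Rragc+/+ kidney, and the mutant mice lay closer together. The means were 629 ± 90.6 and 346 ± 20.9 normalized counts (SD, n = 5), so that Ppargc1a fell by 45.0% in linear terms. On the log2 scale the fold change was -0.85 with a standard error of 0.10 and a 95% interval from -1.06 to -0.64 (limma, adjusted p = 4.64e-05). An exact permutation test over all splits into 5 and 5 mice gave p = 0.00794 (two-sided), the smallest it can give. Between 333 and 673 reads per library stood behind these values. Ppargc1a passed in all 10 fits that left out 1 mouse, with log2 fold changes between -0.93 and -0.78, and among the 7 mice of library codes 53 to 66 it was at -0.95 (limma, adjusted p = 0.000209).

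Ppargc1b, which encodes PGC-1β, was at 178.0, 217.0, 306.2, 236.9 and 248.8 normalized counts in Rragc+/+ mice and at 172.6, 171.9, 253.3, 184.8 and 192.7 in RragcS74N/+ mice. The groups overlapped, and replicate 3 was the highest mouse of both genotypes. Means were 237 ± 46.9 and 195 ± 33.7 normalized counts (SD, n = 5), and the log2 fold change of -0.27 (95% interval -0.57 to 0.02) did not pass the test (limma, adjusted p = 0.373). A decrease of the size seen for Ppargc1a lies outside that interval.

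Because a ratio of 2 genes within a library does not depend on the size factor, the coactivators were also set against each other. Ppargc1a stood at 2.46 to 2.84 times the count of Ppargc1b in Rragc+/+ mice and at 1.38 to 2.05 times in RragcS74N/+ mice. These ranges did not overlap. The mean ratio was 2.67 ± 0.144 and 1.81 ± 0.270 (SD, n = 5), a log2 difference of -0.58 (exact permutation test over mice, two-sided p = 0.00794, or 0.0238 when adjusted over the 3 ratios computed). The decrease of Ppargc1a was therefore larger than that of Ppargc1b in the same libraries, beyond the spread between mice.

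Among the estrogen-related receptors, Esrrb changed, Esrra did not pass the test with means 1.64% apart, and Esrrg lay between them. Esrrb, which encodes ERRβ, was at 107.7, 96.0, 110.0, 108.3 and 85.4 normalized counts in Rragc+/+ mice and at 60.7, 57.6, 57.8, 76.1 and 22.4 in RragcS74N/+ mice. No value was shared between the ranges, although the gap of the nearest mice was small and RragcS74N/+ replicate 5 stood far below the other 4. The means were 101 ± 10.5 and 54.9 ± 19.7 normalized counts (SD, n = 5), and Esrrb fell by 45.9%. The log2 fold change was -0.97 with a standard error of 0.24 and a 95% interval from -1.47 to -0.47 (limma, adjusted p = 0.029), and the exact permutation test gave p = 0.00794. Esrrb is the less abundant of the pair that changed, with 23 to 118 reads per library. Its call was lost without Rragc+/+ replicate 1 (limma, adjusted p = 0.0582), without replicate 3 (0.067) or without replicate 4 (0.0778), and in the library codes 53 to 66 alone, where the log2 fold change was -1.02 (adjusted p = 0.118). Without RragcS74N/+ replicate 5 the log2 fold change was -0.68 (limma, adjusted p = 0.00944).

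Esrrg, which encodes ERRγ, was at 168.0, 190.3, 192.8, 197.2 and 191.1 normalized counts in Rragc+/+ mice. RragcS74N/+ mice had 173.6, 160.7, 127.2, 158.1 and 148.9 normalized counts. All RragcS74N/+ mice but replicate 1 were below every Rragc+/+ mouse, and replicate 1 was above Rragc+/+ replicate 1 only. The means were 188 ± 11.5 and 154 ± 17.3 normalized counts (SD, n = 5), with a log2 fold change of -0.29 and a 95% interval from -0.52 to -0.07 for this gene alone. Adjusted over all genes the difference did not pass (limma, adjusted p = 0.174), while the unadjusted exact permutation test gave p = 0.0159.

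Esrra, which encodes the most widely expressed member of the family and is itself a known target of PGC-1α, had 248.3, 234.8, 150.8, 226.2 and 196.5 normalized counts in Rragc+/+ mice. In RragcS74N/+ mice the values were 265.6, 232.3, 134.5, 235.2 and 206.3 normalized counts. The ranges lay almost on top of each other, and replicate 3 was the lowest mouse of both genotypes. Means were 211 ± 38.8 and 215 ± 49.6 normalized counts (SD, n = 5), and the log2 fold change was 0.01 with a 95% interval from -0.34 to 0.36 (limma, adjusted p = 0.989), whose sign turned when single mice were left out. Set against Esrra within each mouse, Esrrb stood at a ratio of 0.497 ± 0.132 in Rragc+/+ and 0.268 ± 0.119 in RragcS74N/+ kidneys (exact permutation test over mice, two-sided p = 0.0159, or 0.0239 when adjusted over 3 ratios). Its ranges, 0.409 to 0.729 and 0.108 to 0.430, overlapped in 1 mutant mouse. For Esrrg the ratio to Esrra was 0.922 ± 0.226 and 0.737 ± 0.119 (SD, n = 5), which did not differ beyond the spread (exact permutation test, p = 0.119).

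Ppara encodes PPARα, the fatty acid receptor that switches on fatty acid oxidation. It was at 189.0, 163.6, 393.5, 293.7 and 322.4 normalized counts in Rragc+/+ mice and at 189.7, 227.6, 275.3, 248.1 and 327.9 in RragcS74N/+ mice. The genotypes overlapped over most of their ranges, and the runs of library codes did not. The 3 mice of codes 38 to 40 held 163.6 to 189.7 normalized counts and the 7 mice of codes 53 to 66 held 227.6 to 393.5, a separation seen in 4.24% of all genes tested and in no other member. Means by genotype were 272 ± 95.4 and 254 ± 51.9 normalized counts (SD, n = 5), with a log2 fold change of -0.05 and a 95% interval from -0.48 to 0.37 (limma, adjusted p = 0.943), and the sign turned without Rragc+/+ replicates 3 or 5 or RragcS74N/+ replicate 1. Within codes 53 to 66 the log2 fold change was -0.32 (limma, adjusted p = 0.287), and with a covariate for the run it was -0.20 (limma, adjusted p = 0.406). The first run holds 3 mice and was too small for a test of its own.

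The mitochondrial biogenesis factors did not pass the test. Nrf1, whose product binds promoters of respiratory chain genes, was at 105.9, 104.9, 89.6, 89.0 and 104.6 normalized counts in Rragc+/+ mice and at 99.6, 83.6, 98.8, 89.0 and 85.6 in RragcS74N/+ mice. Gabpa, which encodes the DNA-binding subunit of GABP, was the least abundant member, with 50.2, 40.9, 45.4, 46.1 and 45.9 against 46.5, 27.9, 41.0, 55.4 and 35.0 normalized counts. Values of Tfam were 181.7, 222.3, 165.6, 203.7 and 217.8 in Rragc+/+ mice and 207.7, 241.6, 131.4, 182.9 and 154.7 normalized counts in RragcS74N/+ mice. All 3 genes overlapped between genotypes, and Gabpa and Tfam spread more widely among the mutant mice. The log2 fold changes were -0.11 for Nrf1 (95% interval -0.36 to 0.14), -0.18 for Gabpa (-0.57 to 0.21) and -0.13 for Tfam (-0.44 to 0.18), with adjusted p values of 0.739, 0.719 and 0.746 (limma). A fall as large as that of Ppargc1a lies outside each of these intervals.

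Nr2f6 encodes an orphan receptor of the COUP-TF family that acts mostly as a repressor. It was at 603.4, 571.8, 582.9, 598.1 and 611.8 normalized counts in Rragc+/+ mice and at 521.7, 484.1, 668.4, 582.2 and 575.1 in RragcS74N/+ mice. The Rragc+/+ values fell inside the wider range of the mutant mice. Its mean was 594 ± 16.1 and 566 ± 69.8 normalized counts (SD, n = 5), and the log2 fold change of -0.08 did not pass the test (limma, adjusted p = 0.764). The SD on the log2 scale was 0.039 in Rragc+/+ and 0.176 in RragcS74N/+ mice, against a median of 0.236 within genotypes over all genes tested, and for Esrrb it was 0.155 and 0.666.

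**Figure D2:**
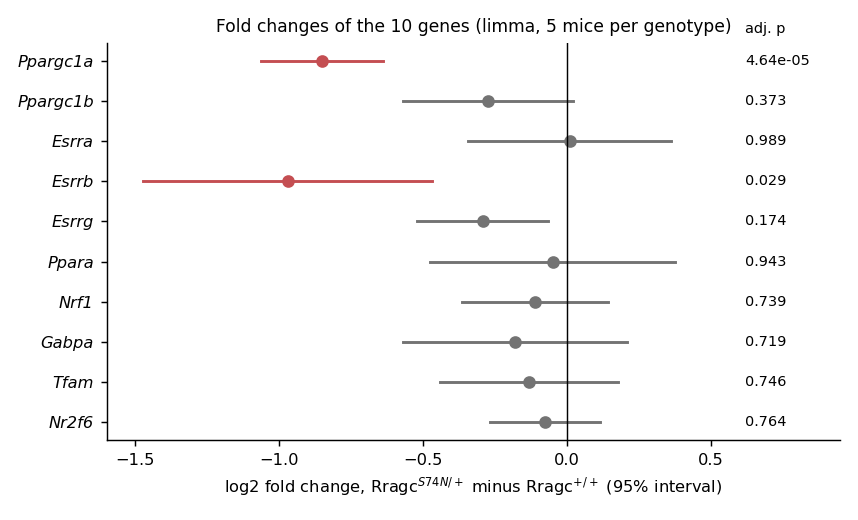
Log2 fold changes of the 10 genes, RragcS74N/+ minus Rragc+/+ (horizontal axis), as points with their 95% intervals from limma (5 mice per genotype) and the adjusted p at the right. Ppargc1a (-0.85) and Esrrb (-0.97), in red, are the members that passed, and the intervals of Ppargc1b, Esrra, Ppara, Nrf1, Gabpa, Tfam and Nr2f6 include 0.

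In whole kidney, fewer cells of a type and less RNA per cell cannot be told apart, and markers of the nephron segments moved with the genotype. Thick ascending limb markers summed to 29387 to 38821 normalized counts in Rragc+/+ and 12615 to 21685 in RragcS74N/+ mice, and 3 of 5 fell (Umod, Egf and Kcnj1) while Cldn16 rose and Slc12a1 did not pass. Distal convoluted tubule markers summed to 4154 to 4813 and 2424 to 3280 normalized counts, and 3 of 4 fell (Slc12a3, Pvalb and Trpm6) while Calb1 did not pass. Both segments thus had lower totals in every mutant mouse. Of the proximal tubule markers 2 of 6 fell (Slc5a2 and Slc5a12) and Slc13a3 rose, with sums of 39393 to 44007 and 41029 to 50453 normalized counts. Principal cell markers summed to 1397 to 1778 and 1833 to 3032 normalized counts, and 1 of 5 rose by limma (Hsd11b2), against 0 by edgeR and 4 by DESeq2, whereas intercalated cell markers summed to 1294 to 1366 and 1017 to 1233, and 2 of 5 fell (Atp6v0d2 and Slc4a1). Of the 4 podocyte, 4 endothelial and 3 leukocyte markers tested, limma, edgeR and DESeq2 each called 0, and 1 of each list had an unadjusted p under 0.05. The share of all genes tested below that unadjusted threshold was not counted. Of 5 fat markers only Cfd was among the deposited genes, at 3.4 to 52.3 normalized counts in Rragc+/+ mice and 0 to 3504 in RragcS74N/+ mice, with the highest value in replicate 5, the mouse with the lowest Esrrb. Cfd was not called by limma (adjusted p = 0.584) and was called by edgeR and DESeq2. The part of these marker differences in the values of Ppargc1a and Esrrb was not tested.

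Ppargc1a and Esrrb were therefore also expressed relative to the markers of each segment, as log2 of the gene minus the mean log2 of the markers in the same mouse. Ppargc1a was lower by this measure relative to proximal tubule markers (difference -0.64), principal cell markers (-1.32) and intercalated cell markers (-0.63), each with an adjusted p of 0.0132 over the 10 differences computed (two-sided exact permutation test). Relative to thick ascending limb markers the difference of -0.40 did not pass (exact permutation test, adjusted p = 0.106), and with summed in place of mean log2 marker counts it was -0.053 (adjusted p = 0.794). In the first 3 of these the genotypes did not overlap, and with summed counts the proximal tubule difference was -0.96. Relative to distal convoluted tubule markers it was higher, by 0.70 (exact permutation test, adjusted p = 0.0132), and that direction rests on how the markers are combined. With the summed marker counts it was -0.13 (exact permutation test, adjusted p = 0.555), and without Pvalb, an alternative chosen after seeing the data, it was 0.19 (adjusted p = 0.273). Ppargc1a and Esrrb were taken because they had been called lower, so these tests add no separate support for that. The marker means also differed between genotypes. From Rragc+/+ to RragcS74N/+ they moved by -0.21 (proximal tubule), -0.45 (thick ascending limb), -1.55 (distal convoluted tubule), 0.47 (principal cell) and -0.22 (intercalated cell). Each shift had an unadjusted p of 0.00794 (exact permutation test) and enters the differences given. With summed marker counts the proximal tubule shift turned to 0.11 (exact permutation test, unadjusted p = 0.0635), and the other segments kept their sign.

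The same marker shifts enter the Esrrb differences, so their order over the segments is that of Ppargc1a by construction and is no separate result. Relative to proximal tubule markers the log2 difference was -0.76 (exact permutation test, adjusted p = 0.0227), to principal cell markers -1.44 (0.0132) and to intercalated cell markers -0.75 (0.0132). Relative to thick ascending limb markers the difference was -0.52 (exact permutation test, adjusted p = 0.0496), a call lost without any of 7 mice (Rragc+/+ replicates 1, 3, 4 and 5 and RragcS74N/+ replicates 1, 2 and 5, adjusted p from 0.0595 to 0.0993), and with summed markers it was -0.17 (adjusted p = 0.555). The distal convoluted tubule difference of 0.58 did not pass (exact permutation test, adjusted p = 0.127), but did without RragcS74N/+ replicate 5, at 0.87 (adjusted p = 0.0227), and it was -0.25 with summed markers and 0.07 without Pvalb. The Ppargc1a difference from thick ascending limb markers passed without Rragc+/+ replicate 1, at -0.51 (adjusted p = 0.0496). In the 7 mice of codes 53 to 66, where the exact test cannot go below 0.0286 before adjustment, none of the 10 differences passed.

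**Figure D3:**
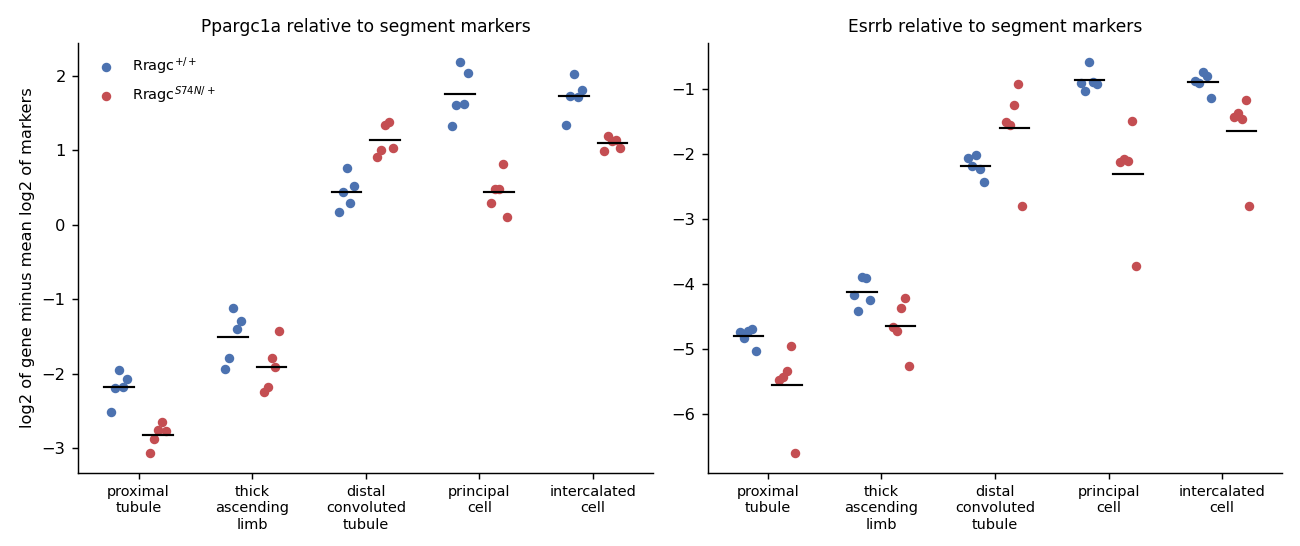
Log2 of Ppargc1a (left) and Esrrb (right) minus the mean log2 of the markers of 5 nephron segments, 1 point per mouse, with Rragc+/+ in blue, RragcS74N/+ in red and bars at the means. Relative to principal cell markers both genes are lower in every mutant mouse, and relative to distal convoluted tubule markers Ppargc1a is higher (0.909 to 1.38 against 0.166 to 0.757), a direction that turns with summed markers.

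The 5 genes whose values ran closest to those of Ppargc1a, by the root mean square difference over the 10 mice of log2 values centred on each gene's Rragc+/+ mean, were Frmd4a, Asl, Pde1a, Klhl3 and Snhg11, at distances of 0.115 to 0.171. Frmd4a encodes a scaffold protein, Asl the urea cycle enzyme argininosuccinate lyase, Pde1a a calmodulin-regulated phosphodiesterase, Klhl3 the ubiquitin ligase adaptor for WNK kinases, and Snhg11 is a noncoding host transcript. Asl, for example, went from 280 ± 28.2 to 149 ± 20.7 normalized counts and Klhl3 from 473 ± 52.7 to 231 ± 16.6 (SD, n = 5). Their log2 fold changes, from -1.03 to -0.82, enclose that of Ppargc1a, which follows from how they were chosen. Among the 13196 other genes, Esrrg was at place 608 by this distance, Ppargc1b at 675, Esrrb at 693 and Esrra at 8703, so that no member was among the closest genes. Seen from Esrrb, Ppargc1a was at place 80. Both had been called lower and the distance includes the fold change, so a near place follows in part from how the pair was chosen.

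Extreme mice differed from gene to gene. Rragc+/+ replicate 3 was the highest of its genotype for Ppargc1a, Ppargc1b, Esrrb and Ppara and the lowest for Esrra and Tfam. RragcS74N/+ replicate 3 was the highest of its genotype for Ppargc1b and Nr2f6 and the lowest for Esrra, Esrrg and Tfam. No mouse was lowest or highest of its genotype for all members, and RragcS74N/+ replicate 4, highest for Ppargc1a, Esrrb and Gabpa, was lowest for none.

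The wider pathway was read from 10 lists of regulators, partners and targets. They held 176 distinct genes, of which 166 were tested and 15 called, or 9.04%, with 12 higher and 3 lower in RragcS74N/+ kidneys, beside 1.67% of all genes tested that were called higher and 2.02% called lower (limma). No set test was made, and the lists were chosen with earlier results of these data known. The called genes stood mostly among PPARα targets, and in 5 of the 10 lists limma called 0 genes. Lists of this length are not set apart by 0 calls, since 3.69% of all genes tested were called.

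**Figure D4:**
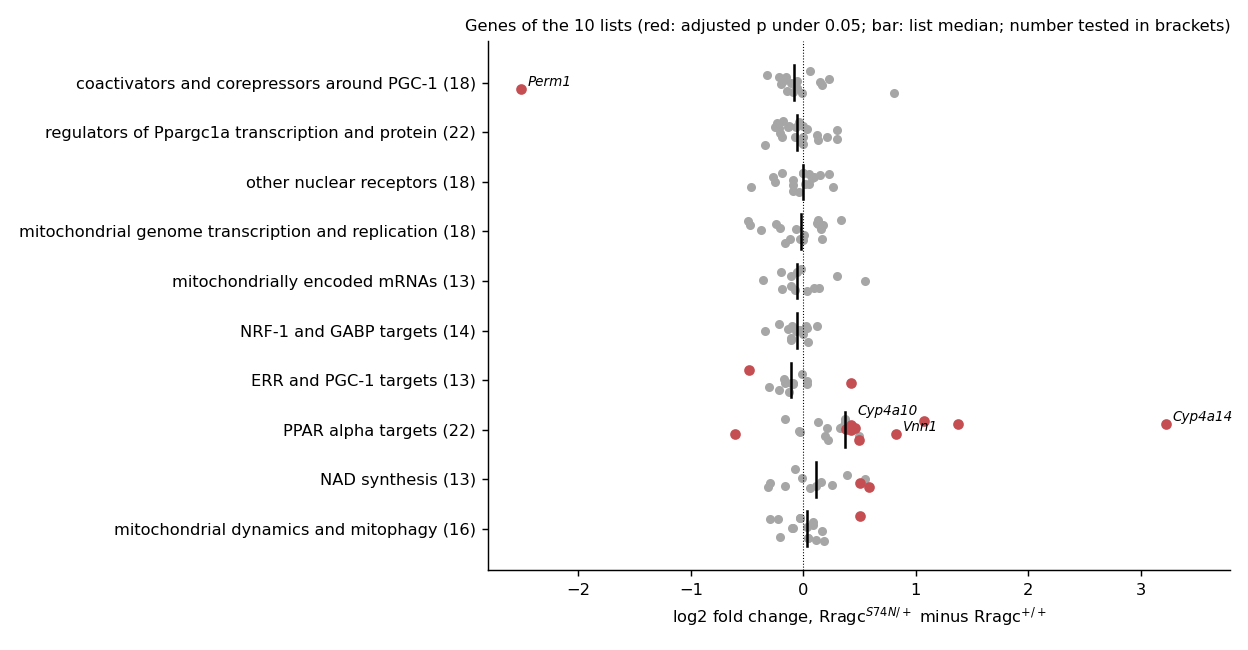
Log2 fold change (horizontal axis, RragcS74N/+ minus Rragc+/+) of every tested gene in 10 pathway lists, with genes past the adjusted p threshold in red, a bar at the median of each list and the number tested in brackets. The medians of 9 lists lie between -0.11 and 0.11, and that of the PPARα targets is 0.37.

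Of 18 coactivators and corepressors that act around PGC-1, Perm1 was called lower and the other 17 did not pass (median log2 fold change -0.08). Perm1 encodes a striated muscle factor that PGC-1 and the estrogen-related receptors induce. It was at 53.9, 55.1, 65.8, 47.2 and 38.4 normalized counts in Rragc+/+ mice and at 13.3, 15.8, 9.5, 7.9 and 1.9 in RragcS74N/+ mice. No mutant mouse came near the lowest control. Perm1 had a log2 fold change of -2.51 with a standard error of 0.37 (limma, adjusted p = 0.000411), and passed in all 10 fits with 1 mouse left out. Only 2 to 62 reads per library stood behind these values, and RragcS74N/+ replicates 3, 4 and 5 were below 10 normalized counts, so the size of the fall is uncertain. Pprc1, the third gene of the PGC-1 family, was at 11.8 to 40.9 normalized counts in Rragc+/+ and 28.2 to 40.9 in RragcS74N/+ mice, a log2 fold change of 0.81 that did not pass (limma, adjusted p = 0.146) but did without Rragc+/+ replicate 2 (adjusted p = 0.0224).

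Regulators that act on Ppargc1a, 22 of 23 listed genes tested, gave 0 calls by limma, edgeR or DESeq2 (median log2 fold change -0.05), and 4 had an unadjusted p under 0.05. The most abundant were Gsk3b, a kinase that marks PGC-1α for degradation, at -0.0031 and Foxo1, an insulin-restrained activator of Ppargc1a, at 3.9e-05 on the log2 scale. Tfeb had a log2 fold change of -0.07, Tfe3 of 0.21 and Mitf of -0.34 (limma, adjusted p = 0.114 for Mitf), and Mitf was called, lower, with a covariate for the library codes (adjusted p = 0.0437) and without Rragc+/+ replicate 2 (0.0497). Prkaa2, which encodes a catalytic subunit of AMPK, had a log2 fold change of -0.02. mRNA levels of these genes do not report the location or activity of their proteins. Of 22 other nuclear receptors listed, 18 were tested, 0 were called by any of the 3 tools and 1 had an unadjusted p under 0.05, with Hnf4a at 0.06 and Nr2f2 at -0.0009 on the log2 scale. For both lists, the share of all genes tested with an unadjusted p under 0.05 was not counted.

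In 3 lists of the mitochondrial arm limma called 0 genes. They were 18 factors of mitochondrial genome transcription and replication (median log2 fold change -0.02), 13 protein-coding genes of that genome (-0.05) and 14 NRF-1 and GABP targets (-0.06). Over all genes tested 3.69% were called, so 0 calls in lists of this length do not set them apart. At an unadjusted p under 0.05, where the share of all genes was not counted, the 3 lists held 1, 2 and 0 genes. edgeR called 0 in each, and DESeq2 called 2 of the mitochondrially encoded genes, mt-Nd6 higher and mt-Atp8 lower, and 0 in the others. mt-Atp6 was at 0.14 on the log2 scale and did not pass (limma, adjusted p = 0.766). Libraries were primed with oligo-dT, and where on the mitochondrial transcripts these reads began was not examined. In the first list the most abundant genes were Lrpprc, at 0.0079, and Slirp, at -0.16, which together stabilize mitochondrial mRNAs. In the others they were mt-Nd4 (-0.20) and mt-Cytb (-0.11), subunits of complexes I and III, and Cox6c (-0.13) and Cox7a2 (-0.11), subunits of cytochrome oxidase. In other settings mt-Atp8 was called with quantile normalization, robust variances, the library code covariate and codes 53 to 66 alone (adjusted p from 0.02 to 0.0469) and without Rragc+/+ replicate 1 (0.0321), mt-Nd6 without RragcS74N/+ replicate 1 (0.0318) and mt-Co3, higher, with the covariate (0.00986). The median log2 fold change over all genes tested was 0.0005.

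Among 13 tested targets of the estrogen-related receptors and PGC-1, 10 had a negative and 3 a positive log2 fold change (median -0.11), and 1 was called in each direction. Slc25a4, the mitochondrial ADP/ATP carrier of heart type, fell from 2001 ± 60.4 to 1431 ± 66.4 normalized counts (SD, n = 5). The ranges, 1929 to 2083 and 1362 to 1501, did not overlap. The log2 fold change of Slc25a4 was -0.48 with a standard error of 0.07 (limma, adjusted p = 0.000389), and it passed in all 10 fits with 1 mouse left out. Acadm, the medium-chain acyl-CoA dehydrogenase, rose by 0.42 on the log2 scale (limma, adjusted p = 0.0382), but its groups overlapped and the call was kept in 3 of 10 such fits, those without Rragc+/+ replicate 2 or RragcS74N/+ replicates 3 or 5, with adjusted p values up to 0.106 in the others, and it was lost with quantile normalization (0.0575) and without a variance trend (0.143).

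In the list of PPARα targets most called genes were higher, while Ppara itself was at -0.05. Of 22 tested, 9 rose, 1 fell and 12 did not pass, and the median log2 fold change was 0.37. Leaving out each mouse in turn gave 6 to 9 higher and 0 to 1 lower genes, and limma without a variance trend gave 5 higher and 0 lower. Cyp4a14, a fatty acid ω-hydroxylase, was at 77.1 to 176 normalized counts in Rragc+/+ mice (median 155) and 418 to 3138 in RragcS74N/+ mice (median 1499.6). The mutant mice were all above the controls and differed widely among themselves, with replicate 3 the lowest and replicate 5 the highest. The log2 fold change of Cyp4a14 was 3.23 with a standard error of 0.38 (limma, adjusted p = 4.02e-05). Vnn1, the pantetheinase, rose from 445 ± 26.8 to 800 ± 148 normalized counts (log2 fold change 0.83, adjusted p = 0.000166, limma), Cyp4a10 from 2525 ± 303 to 5469 ± 1510 (1.08, adjusted p = 0.000236) and Acot1, an acyl-CoA thioesterase, from 711 ± 68.8 to 1001 ± 90.4 (0.49, adjusted p = 0.00301). All 4 genes passed in every fit with a mouse left out, without overlap between genotypes. They were taken as the called targets with the smallest p, so this follows in part from how they were chosen. The share of all genes tested that were higher without overlap was not counted. The Cyp4a and Acot genes have near-identical relatives and the aligner allowed multiple hits, so the counts of these genes are less certain.

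Further called PPARα targets, named after their values were seen, included Acadm, Cpt2 and Decr1, the latter pair called in all 10 fits with a mouse left out, and Acsl1, called in 5 of them. Cpt2, of the carnitine shuttle, rose from 665 ± 63.1 to 915 ± 114 normalized counts, and Decr1, an auxiliary enzyme of β-oxidation, from 1221 ± 53.7 to 1641 ± 156 (SD, n = 5). Acsl1, a long-chain acyl-CoA synthetase, was the target that fell, from 1173 ± 208 to 780 ± 188 normalized counts (log2 fold change -0.61, adjusted p = 0.0382, limma). The Acsl1 call was lost without Rragc+/+ replicates 3, 4 or 5 or RragcS74N/+ replicates 3 or 4 (adjusted p up to 0.124).

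NAD synthesis, a known output of PGC-1α in the tubule, had 2 genes called higher and 0 lower among 13 tested (median log2 fold change 0.11). Haao, of the pathway from tryptophan, rose from 1341 ± 178 to 1913 ± 306 normalized counts (SD, n = 5; log2 fold change 0.51, adjusted p = 0.0111, limma) and passed in all 10 fits with a mouse left out, but not in limma without a variance trend (adjusted p = 0.079), where 0 genes of the list were called. Ido2 rose by 0.59 on the log2 scale (limma, adjusted p = 0.0424), a call that, of the 10 fits with a mouse left out, was kept only without RragcS74N/+ replicate 3 (adjusted p up to 0.124 in the others), and that was lost within codes 53 to 66 (0.175). Of 16 genes of mitochondrial dynamics and mitophagy, Mief1, which recruits the fission GTPase to mitochondria, rose by 0.51 (limma, adjusted p = 0.0242). The Mief1 call was lost without Rragc+/+ replicates 3, 4 or 5 or RragcS74N/+ replicates 1 or 4 (adjusted p up to 0.0772) and within codes 53 to 66 (0.0955), and the other 15 genes did not pass.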

How the data were processed

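The authors prepared QuantSeq 3′ libraries from total RNA of whole kidneys. According to the submitters' processing notes, reads were checked with FastQC 0.11.7, aligned to GRCm39 with TopHat2 2.0.10 (Bowtie 1.0.0, SAMtools 0.1.19), allowing multiple hits, and counted per gene and strand with HTSeq 0.6.1. The values the authors deposited are a signal, each mouse's reads on a gene over that library's size factor, here called the normalized count. All values were whole numbers of reads after multiplication by the size factor, within 0.01 reads. The lowest mean of a gene was 5.64, so rarer genes were not analysed here, and 0 value columns were left unmatched.

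The normalization was kept, and log2(value + 1) was tested with limma 3.58.1 in R 4.3.3 (eBayes with trend, no covariate, two-sided), since the values are not raw counts. The added 1 makes fold changes of low genes too small. edgeR 4.0.16 and DESeq2 1.42.0 were run on the recovered reads as alternatives and called 480 and 648 genes, against 487 by limma. Single values, ratios and levels relative to markers were compared by exact permutation over mice (scipy 1.17.1 and numpy 2.4.6 in python 3.11.15). Library pairs differed by more than sampling noise, so all 10 were kept as separate mice. On simulated data of 13009 genes with 200 changed by 1 on the log2 scale, limma called 83.4% of the changed genes tested, with 2.42% false calls.

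Named genes were the members, Rragc, the 5 genes nearest to Ppargc1a by distance, the segment markers, and in each list the called genes (at most 4, by p) or, without a call, the 2 most abundant, and further ones were chosen after their values were seen. Members, lists and rules were chosen with earlier results of these data known. Promoters came from RefSeq on GRCm38.p6. Alternatives were other pseudocounts, filters, scalings and variance models, edgeR, DESeq2, the runs of library codes, summed markers and each mouse left out in turn. A pseudocount in the ratios, the markers without Pvalb and the list counts under every setting were added after the data had been seen. Some called genes of the lists are counted but not reported here by name.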

Additional observations from a re-analysis of the deposited data

Results flagged for a closer look

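Of 46 groups of 5 mice tested (members, ratios and levels relative to markers in each genotype), 6 held a mouse whose gap to the nearest other mouse was above Dixon's 95% critical value of 0.71 of the range, and chance gives about 1 in 20. Ppargc1b was at 253.3 normalized counts in RragcS74N/+ replicate 3, above the 172 to 193 of the other 4 mice. Esrrg was at 168.0 normalized counts in Rragc+/+ replicate 1, below 190 to 197 in the others. The ratio of Esrrb to Esrra was 0.729 in Rragc+/+ replicate 3, against 0.409 to 0.479 in the others, and the ratio of Esrrg to Esrra was 0.945 in RragcS74N/+ replicate 3, against 0.654 to 0.722. Those 2 mice had the lowest Esrra of their genotypes. In RragcS74N/+ replicate 5, the mouse with the lowest Esrrb, log2 of Esrrb was at -3.72 relative to principal cell markers (others -2.13 to -1.48) and at -2.79 relative to intercalated cell markers (others -1.45 to -1.17).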

How the results depend on the processing

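Ppargc1a was called in every fit run, 10 with a mouse left out and 12 with other settings, with log2 fold changes between -0.95 and -0.78. Its ratio to Ppargc1b passed in all 14 alternatives. Esrrb was lost in 5 of 22 fits, those without Rragc+/+ replicates 1, 3 or 4, limma without a variance trend (adjusted p = 0.109) and the library codes 53 to 66 alone, so that 1 member was called in these and 1 to 2 over the fits with a mouse left out. Ppargc1b, Esrrg, Nrf1, Gabpa, Tfam and Nr2f6 kept their sign and did not pass in any fit run. The number of genes called was 291 without a variance trend, 832 with the library codes as a covariate, and 295 to 466 with a mouse left out, where it was 310 without Rragc+/+ replicate 4 and 295 without replicate 5. Relative to segment markers, 0 of 10 differences passed within codes 53 to 66, where 7 mice allow no p below 0.0286 before adjustment. Summed markers turned the distal convoluted tubule differences of Ppargc1a (-0.13) and Esrrb (-0.25). With a mouse left out, log2 fold changes ran from -0.11 to 0.17 for Esrra, -0.21 to 0.10 for Ppara, -0.056 to 0.090 for Gsk3b, -0.043 to 0.054 for Foxo1, -0.0037 to 0.11 for Hnf4a, -0.063 to 0.076 for Nr2f2 and -0.072 to 0.067 for Lrpprc. Foxo1 was -0.0058 with TMM factors, -0.022 with quantile normalization, -0.00067 with edgeR and -0.016 with the covariate. Hnf4a was -0.0015 with quantile normalization. Lrpprc was -0.060 with quantile normalization, -0.0037 with edgeR, -2.5e-05 with DESeq2, -0.035 with the covariate and -0.15 within codes 53 to 66. The causes of these changes were not tested. Gabpa and Perm1 had no value under the filter on a mean of at least 50. Reads per library were 23 to 118 for Esrrb and 333 to 673 for Ppargc1a. No paired analysis was possible because the labels give the mice no shared replicate numbers.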
